A study of Mus musculus with 7 samples.

Results

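Alternative splicing of hnRNP genes was examined in cervical loop epithelium of the mouse incisor, which holds the progenitor cells that renew this continuously growing tooth. The deposited table lists 278 splicing events under 228 gene names, and all events whose gene name is Hnrnpdl, Hnrnpd, Hnrnpa2b1, Hnrnph3 or Hnrnpc were taken, which gave 6 events in 5 genes. Each of the 7 RNA-seq libraries carries the genotype K14CreER;Srsf1fl/fl, and the mice were 8 to 10 weeks old. In these mice, a Cre recombinase under keratin 14 control is activated by tamoxifen and removes loxP-flanked Srsf1 sequence. Deletion thus takes place in cells that express keratin 14 when tamoxifen is given. The 3 control libraries (1, 2 and 7) were from mice not given tamoxifen and the 4 mutant libraries (3, 4, 5 and 9) from mice given it. Tamoxifen itself and loss of Srsf1 therefore cannot be told apart. The value measured was percent spliced in (PSI), the percentage of an event that its reads assign to the form called inclusion. The read number behind each PSI value is unknown, so no counting interval is given.

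Heterogeneous nuclear ribonucleoproteins (hnRNPs) coat nascent transcripts and influence splicing, stability and transport of RNA. Most combine RNA recognition domains with a flexible region rich in glycine and tyrosine that mediates contacts between proteins. SR proteins such as SRSF1 bind exons and usually promote their inclusion, and hnRNPs often act against them at the same sites. Many genes of both families limit their own output through unproductive splicing, in which a retained intron or a frame-shifting exon choice exposes the transcript to nonsense-mediated decay.

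The authors listed an event on the comparison of mutant with control libraries, and the 5 genes were chosen from that list. The differences below are therefore a description of selected events, with no test of that contrast. The corrected DRIMSeq p-values that the authors' deposited table gives for the 6 events ran from 2.95e-09 to 0.0761, while the highest value in the whole table was 0.0979. By the JuncBASE corrected p in the authors' deposited table, 0 of the 6 were below 0.05, against 1 of all 278 listed events (0.36%). By the raw JuncBASE p in that authors' deposited table, 5 of the 6 were below 0.05, against 244 of 278 (87.8%). Over the whole table, limma (adjusted p below 0.05) called 95.7% of listed events (78.8% lower and 16.9% higher in the mutants), and 95.7% had control and mutant values that did not overlap. All 6 hnRNP events passed the limma threshold, 5 lower and 1 higher, and had separate groups, a share from which nothing is read against that background. Of 32 genes in a list of the hnRNP family, these 5 had a listed event, and the other 27 cannot be called unchanged. None of 23 marker genes of dental epithelium, dental mesenchyme and blood or endothelium had a listed event. limma was run on listed events only, so it did not cover these markers. Because the table gives splicing but no expression level, the tissue label could not be checked against markers. In bulk tissue, a change of splicing within cells and a change in the mix of cells cannot be told apart. The labels do not say whether each library was a separate animal, so SDs measure the spread between these libraries only. The event of the targeted gene Srsf1, in which exon 1 is joined past the rest of the gene, had PSI values of 5.83% to 10.07% in controls and 44.74% to 85.52% in mutants. This event was listed on the same comparison, so it is no independent check of the labels.

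The sequences on which the events turn are shown first, read 5′ to 3′ on the transcribed strand from GENCODE M21 transcripts (GRCm38). All 5 genes lie on the minus strand. The end of the retained Hnrnpdl intron (chr5:100036652-100036725) is shown for the stop codon that lies in frame with the upstream coding exon, in capitals together with the AG of the 3′ splice site.
Hnrnpdl intron end: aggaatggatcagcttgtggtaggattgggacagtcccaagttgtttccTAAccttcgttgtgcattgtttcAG
Exon 6 of Hnrnpdl (chr5:100036481-100036651) and exon 7 of Hnrnpd (chr5:99963731-99963877) are shown for their likeness, with in-frame TAT and TAC codons, which encode tyrosine, in capitals.
Hnrnpdl exon 6: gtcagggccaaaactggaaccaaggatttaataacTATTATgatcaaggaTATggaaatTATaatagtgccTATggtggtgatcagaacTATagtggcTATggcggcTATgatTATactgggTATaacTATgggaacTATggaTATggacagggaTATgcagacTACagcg
Hnrnpd exon 7: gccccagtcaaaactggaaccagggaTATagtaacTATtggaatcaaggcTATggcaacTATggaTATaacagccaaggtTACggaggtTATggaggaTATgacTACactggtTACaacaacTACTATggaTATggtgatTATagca
Exon 8 of Hnrnpa2b1 (chr6:51464428-51464547) is shown with the parts that the listed junctions join in capitals and the stretch between them, which those junctions treat as an intron, in lower case.
Hnrnpa2b1 exon 8: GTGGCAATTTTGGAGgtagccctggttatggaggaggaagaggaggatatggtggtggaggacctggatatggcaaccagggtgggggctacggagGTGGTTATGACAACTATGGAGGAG
Exon 3 of Hnrnph3 (chr10:63018760-63018898) is shown as the exon whose skipping shifts the reading frame, with matches to GGAGA in capitals.
Hnrnph3 exon 3: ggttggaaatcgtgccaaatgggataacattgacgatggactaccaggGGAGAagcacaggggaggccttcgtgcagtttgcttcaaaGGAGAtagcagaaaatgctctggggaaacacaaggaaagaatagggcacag

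Hnrnpdl encodes an hnRNP D-like protein that binds AU-rich RNA, and it was the gene with the largest differences among the 5. By PSI, its transcripts in the mutants more often kept the intron between exons 5 and 6. This intron (chromosome 5, 100036652 to 100036861, 210 bases; gene ENSMUSG00000029328.15) was retained at PSI values of 7.87%, 7.24% and 6.77% in controls 1, 2 and 7. Mutants 3, 4, 5 and 9 had 21.54%, 35.54%, 50.20% and 38.91%. The controls were close together and the lowest mutant stood 13.67 points above the highest control, while the mutants were widely spread. Group values were 7.29% ± 0.552 (SD, n = 3) and 36.5% ± 11.8 (SD, n = 4), a difference of 29.25 points (SE 5.76) between means and 29.98 points between medians. Among the 17 retained introns of the table, 6 had a higher and 11 a lower median in the mutants. The Hnrnpdl intron had the largest gain of these 17, and the next, in Zfp692, gained 17.17 points. By size in either direction, the Hnrnpdl difference ranked 3 of 17.

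The retained intron is short beside the others listed, whose median length was 1430 bases. No M21 transcript of Hnrnpdl carries it whole, and 5 of the 7 annotated transcripts splice it out. An annotated transcript has an exon that starts inside the intron and runs on into exon 6, with the last 74 bases of the intron. Which reads were counted as retention is not known here, so reads of that form may be among them. The length of the intron is divisible by 3, but the last 74 bases hold a TAA codon in frame with exon 5, 22 bases before the 3′ splice site. A transcript that retains the intron and is otherwise spliced as the principal coding transcript would have this stop 285 bases before its last exon junction. Such a position, well upstream of a last junction, is the usual mark of a target of nonsense-mediated decay. The first 136 bases of the intron were not read. For transcripts that keep the whole intron, the event is thus decay-linked by its sequence. The level of such transcripts was not measured.

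The second Hnrnpdl event concerns the next splicing choice of the same exon 5. The table classes it as an alternative 3′ splice site, with inclusion by the junction from exon 5 to exon 6 and exclusion by a junction from exon 5 directly to exon 7 (chromosome 5, 100036196 to 100036861). The region between both acceptors is 456 bases long and holds exon 6 (171 bases) and the intron after it (285 bases), so the exclusion junction skips exon 6. That skipping junction is in no M21 transcript. PSI was 99.45%, 97.87% and 99.10% in controls 1, 2 and 7, and 70.70%, 59.21%, 79.05% and 79.74% in mutants 3, 4, 5 and 9. Skipping of exon 6 was close to absent in all 3 controls and present in all 4 mutants, with 18.13 points between the nearest libraries of the groups. Group values were 98.81% ± 0.83 (SD, n = 3) and 72.2% ± 9.57 (SD, n = 4), and the mean fell by 26.63 points (SE 4.76). Of the 6 listed alternative 3′ splice sites, 5 had a lower median in the mutants, and the Hnrnpdl difference ranked 2 of 6 by size.

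Both Hnrnpdl events use the junction from exon 5 to exon 6, as the exclusion form of the retained intron and as the inclusion form of the splice site choice. They are not independent measurements of that junction. Set against it, both other outcomes, keeping the intron and skipping exon 6, had larger shares in every mutant library than in any control. The libraries were not ordered alike in both events. Mutant 5 had the highest retention (50.20%) but little skipping beside mutant 4, which had the lowest PSI at the splice site (59.21%). Skipping of exon 6 removes 171 bases, a multiple of 3, from a coding sequence of 420 codons and keeps the frame, so it is a protein-changing event.

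**Figure D1:**
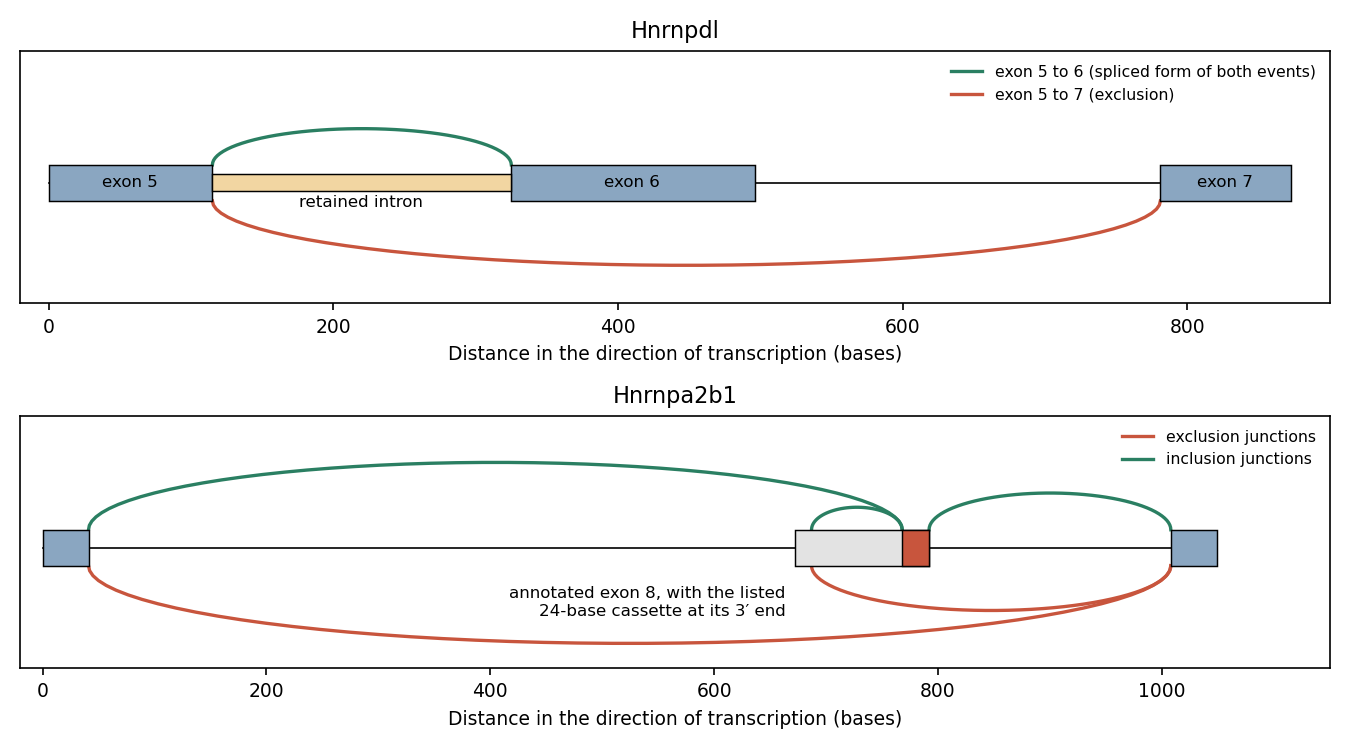
Maps of the Hnrnpdl (top) and Hnrnpa2b1 (bottom) events, with distance in the direction of transcription in bases on the horizontal axis, boxes for exons and arcs for junctions. The green arc of Hnrnpdl is the spliced form of both its events, the retained intron of 210 bases lies under it, and the outer exons of Hnrnpa2b1 are drawn in part.

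Hnrnpd encodes hnRNP D, also known as AUF1, which binds AU-rich elements and regulates mRNA turnover. Its isoforms differ by alternative exons near both ends of the coding region, of which exon 7 is the one listed here (147 bases; gene ENSMUSG00000000568.15). Inclusion of exon 7 was 59.77%, 58.22% and 58.61% in controls 1, 2 and 7. Mutants 3, 4, 5 and 9 had 46.21%, 40.61%, 38.69% and 47.39%. The controls were tightly grouped, and the mutants formed a band whose top lay 10.83 points below the lowest control. Group values were 58.9% ± 0.806 (SD, n = 3) and 43.2% ± 4.23 (SD, n = 4), and the mean fell by 15.64 points (SE 2.55). By PSI, the form with exon 7 thus had the larger share in the controls, and the form without it in each of the 4 mutants. Whether reads were adjusted for the length of each form is not known here. These shares are therefore read as PSI only, not as shares of reads or of transcripts. All 3 junctions of the event are annotated, and both forms are coding: the M21 proteins with and without the exon have 355 and 306 codons.

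Exon 7 of Hnrnpd and exon 6 of Hnrnpdl are counterparts in paralogous genes that lie 54638 bases apart on chromosome 5. A global alignment paired 147 bases, of which 106 (72.1%) were identical, with 24 gap bases. The coding exons of 132 bases located further upstream in the same genes were identical at 65.2% of positions, with 0 gap bases. Because the 72.1% leaves out gap bases, these shares do not show which pair of exons is more alike. Both exons keep the frame, and both encode part of the tyrosine- and glycine-rich tail of the protein. Of the 48 whole codons of Hnrnpd exon 7, 14 (29.2%) were tyrosine codons and 12 (25.0%) glycine codons. Exon 6 of Hnrnpdl had 15 tyrosine codons (26.8%) and 14 glycine codons (25.0%) among 56. Over 136 listed cassette exons with an annotated frame and at least 10 codons, the median share of tyrosine codons was 1.74%. Hnrnpd exon 7 had the highest share of these 136, and the next, an exon of Setd3, had 10.5%. The inclusion of both tyrosine-rich exons was lower in all 4 mutants than in any of the 3 controls. Over all listed events, 95.7% had separate groups and 82.0% a lower median, so nothing is read from this likeness. Starting levels were far apart, near 59% for Hnrnpd and near 99% for Hnrnpdl.

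Hnrnpa2b1 encodes hnRNP A2 and hnRNP B1, abundant proteins of the A/B class that bind UAG-containing RNA and act in splicing and RNA transport. The listed cassette is a 24-base segment (chromosome 6, 51464428 to 51464451; gene ENSMUSG00000004980.16) that forms the 3′ end of the 120-base coding exon 8. PSI was 59.70%, 63.72% and 83.50% in controls 1, 2 and 7, and 55.15%, 44.83%, 46.18% and 57.08% in mutants 3, 4, 5 and 9. Control 7 stood well above the other controls, and the lowest control was only 2.62 points above the highest mutant. Group values were 69.0% ± 12.7 (SD, n = 3) and 50.8% ± 6.2 (SD, n = 4), and the mean fell by 18.16 points (SE 5.89). The size of this difference depended on single libraries: that of the medians was −13.05 points with all libraries, −8.57 without mutant 4 or without mutant 5, −22.94 without control 1 and −20.93 without control 2. It also had the highest DRIMSeq corrected p of the 6 events in the authors' deposited table (0.0761).

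What the Hnrnpa2b1 value measures is less plain than for the other cassettes. The junction downstream of the segment (51464212 to 51464427) is also the one that the complete exon 8 uses, so reads over it do not separate the segment from the whole exon. The sources used here do not say which reads were counted for each form. An exclusion junction that skips all of exon 8 (51464212 to 51465178) is annotated in 3 transcripts. The segment is an exon of its own in 1 coding M21 transcript, against 4 transcripts with the complete exon 8. The other 3 junctions of the event are in no M21 transcript. They include an 81-base stretch inside exon 8 (51464452 to 51464532) that starts with GT and ends with AG, as most introns do. The segment (24 bases), the inner stretch (81 bases) and the exon (120 bases) are all multiples of 3, so each of these choices keeps the frame. Exon 8 belongs to the glycine-rich domain, and 23 of its 39 whole codons (59.0%) were glycine codons and 6 (15.4%) tyrosine codons. The M21 proteins with and without exon 8 have 341 and 301 codons.

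Hnrnph3 encodes a member of the hnRNP H/F class, which binds G-rich RNA. Its exon 3 is a coding exon of 139 bases (chromosome 10, 63018760 to 63018898; gene ENSMUSG00000020069.16). PSI was 71.43%, 72.46% and 73.48% in controls 1, 2 and 7, and 67.22%, 61.43%, 48.92% and 50.54% in mutants 3, 4, 5 and 9. Mutants 5 and 9 lay more than 10 points below mutants 3 and 4, and mutant 3 was 4.21 points under the lowest control. Group values were 72.5% ± 1.03 (SD, n = 3) and 57.0% ± 8.78 (SD, n = 4), and the mean fell by 15.43 points (SE 4.42). The exon length is not a multiple of 3. In the M21 transcript without the exon, which is annotated for nonsense-mediated decay, the reading frame ends after 71 codons, against 346 in the coding transcript. This stop (63018122 to 63018124) lies 609 bases before the last exon junction. Another annotated transcript without the exon is classed as coding, and its reading frame is not reported here. The event is decay-linked by the annotation of the first of these transcripts. By PSI, the skipped form made up 27.5% of the event on average in the controls and 43.0% in the mutants.

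Hnrnpc encodes hnRNP C, a core component of the particles that package nascent transcripts, which binds uridine tracts. Its event lies wholly upstream of the start codon (gene ENSMUSG00000060373.15, chromosome 14). All 5 junctions of the event end at the same acceptor, that of the first coding exon, and differ in the exon to which it is joined. Inclusion means joining to a 26-base exon (52098015 to 52098040) or to exons that end at 52097315 or 52097322, and exclusion means joining directly to the exon at 52103889 to 52104028 or to a splice site at 52098042. PSI was 72.66%, 71.25% and 77.90% in controls 1, 2 and 7, and 59.59%, 61.09%, 61.94% and 64.22% in mutants 3, 4, 5 and 9. The mutants were closer together than the controls, and 7.03 points separated the nearest libraries of the groups. Group values were 73.9% ± 3.5 (SD, n = 3) and 61.7% ± 1.93 (SD, n = 4), and the mean fell by 12.23 points (SE 2.26). The table names this an alternative first exon. In M21, however, the 26-base exon is an internal exon in the untranslated leader, as exon 2 of the coding transcript Hnrnpc-201, downstream of the exon at 52103889. The listed junctions thus cover skipping of a small leader exon as well as a choice of first exon, and neither changes the coding sequence. The second of these exclusion junctions (52084392 to 52098041) is in no M21 transcript, and the table does not give reads per junction.

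**Figure D2:**
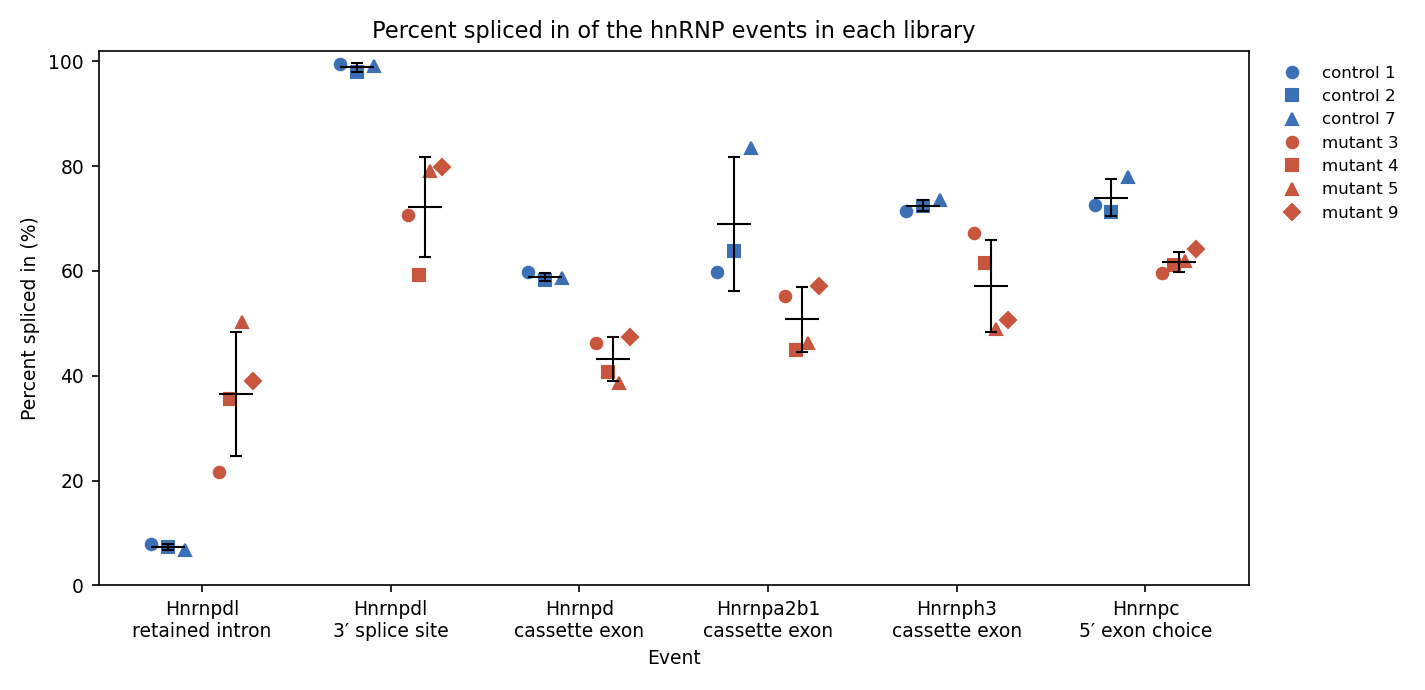
Percent spliced in (%) of the 6 hnRNP events in each library, with controls in blue, mutants in red, 1 marker per library, and black bars for the mean ± SD of 3 controls and 4 mutants. Only the retained intron of Hnrnpdl is higher in the mutants, and the groups are closest for Hnrnpa2b1, where 2.62 points separate them.

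By direction, 5 of the 6 events had lower and 1 had higher PSI in the mutants, and over all listed events 82.0% had a lower median. The median absolute difference was 15.8 points over the 6 events and 13.6 points over all 278. By absolute difference of medians, the retained intron of Hnrnpdl ranked 13 of 278 and its splice site 36. Hnrnph3 ranked 97, Hnrnpd 117, Hnrnpa2b1 149 and Hnrnpc 176, near the middle of the table. The spread differed between groups: the median SD of the 6 events was 0.927 points in the controls and 7.49 in the mutants, against 2.21 and 4.11 over all listed events. For 4 of the events the mutant SD was above the control SD, by 21.4 times for the Hnrnpdl intron, and for Hnrnpa2b1 and Hnrnpc it was below (0.487 and 0.552 times).

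**Figure D3:**
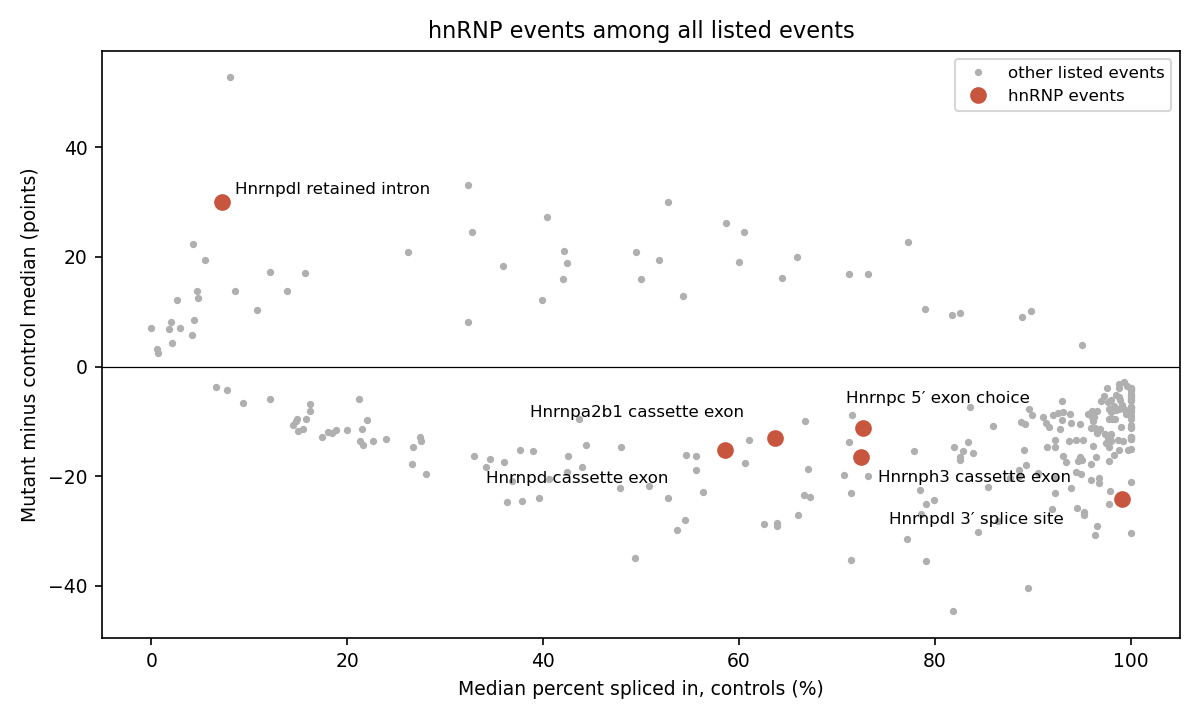
Difference of medians (mutant minus control, points) against the control median PSI (%) for all 278 listed events, with the 6 hnRNP events in red. The Hnrnpdl intron started at 7.24% and gained 29.98 points, and the 5 other hnRNP events started between 58.61% and 99.1% and lie below 0.

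No single mutant library led all events. Mutant 5 had the largest change from the control mean in 3 of the 6 events, mutant 4 in 2 and mutant 3 in 1. Mutant 9 had the smallest change in 4 events and mutant 3 in 2. For the Hnrnpdl intron, changes were 14.25, 28.25, 42.91 and 31.62 points in mutants 3, 4, 5 and 9, and for Hnrnph3 they were −5.24, −11.03, −23.54 and −21.92, the same order by size. The splice site of Hnrnpdl had another order, with −28.11, −39.6, −19.76 and −19.07 points. Changes of Hnrnpc lay close together, from −14.35 to −9.72 points. The Srsf1 event rose by 57.63, 36.77, 77.55 and 47.86 points in the same libraries, and no hnRNP event had that order of mutants. With 4 mutant libraries these orders are values only.

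**Figure D4:**
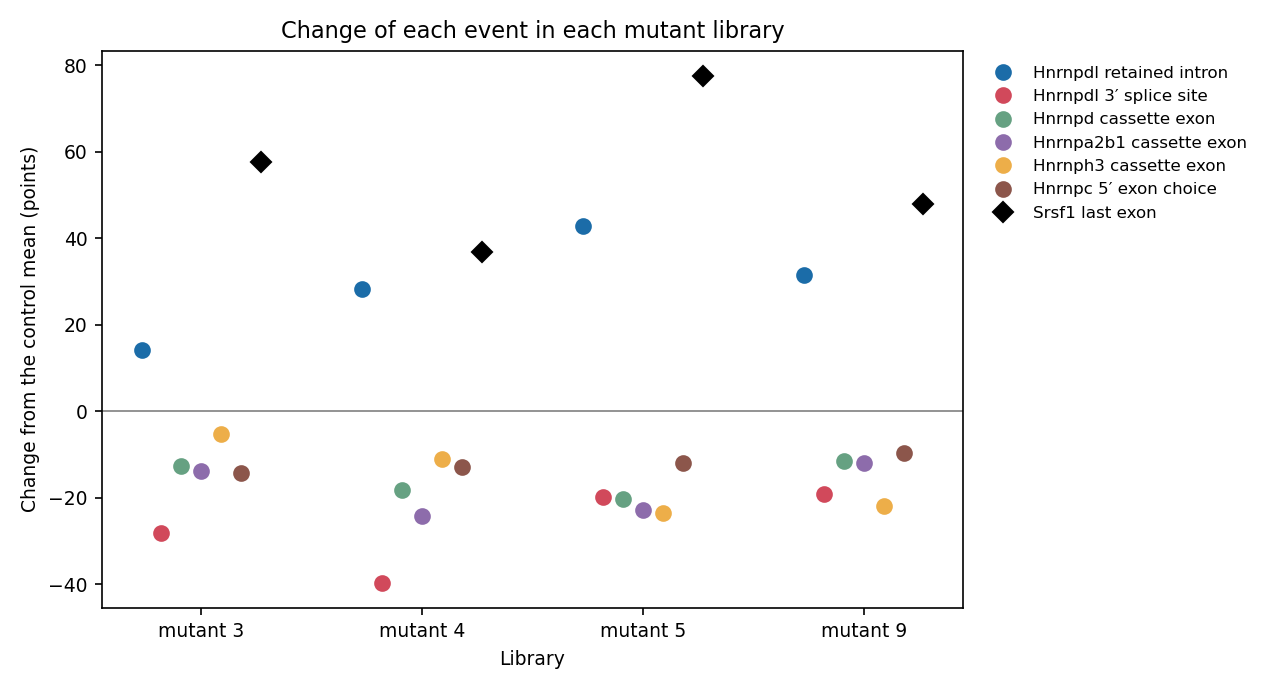
Change of PSI from the control mean (points) in each mutant library, with a circle for each hnRNP event and a black diamond for the Srsf1 event. The largest change of the Hnrnpdl intron (42.91 points) is in mutant 5 and that of the Hnrnpdl splice site (−39.6 points) in mutant 4.

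Short motifs were counted on the transcribed strand of these exons, with overlapping matches counted. GGAGA and GAAGAA stand for purine-rich motifs of the SRSF1 class and can overlap each other, TAGG for hnRNP A/B proteins and TTTTT for hnRNP C. Exon 3 of Hnrnph3 held GGAGA 2 times and TAGG 1 time. Of the 74 listed cassette exons of 100 to 200 bases, 24.3% held GGAGA, 13.5% GAAGAA, 21.6% TAGG and 10.8% TTTTT. Exon 7 of Hnrnpd, exon 6 of Hnrnpdl and exon 8 of Hnrnpa2b1 held none of the 4 motifs, and other purine-rich motifs were not counted. The end of the retained Hnrnpdl intron held TAGG 1 time, and the 285-base intron after exon 6 held TAGG 3 times and TTTTT 5 times. Shares over introns were not counted and those of exons are no measure for them, so nothing is read from these intron counts. All these matches, in exons and introns, describe letters in the windows read and are no evidence of binding.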

How the data were processed

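Total RNA was prepared for sequencing with the Illumina TruSeq protocol, per the labels' protocols. Tools named without versions are TopHat, Bowtie, DESeq and SAMtools, per the submitters' processing notes. The series text names JuncBASE for the events. The authors deposited a PSI value as a percent for every library, beside group medians and their difference in points, per the file headers. They also deposited raw and corrected p-values of JuncBASE and DRIMSeq, per the file headers. Read counts per event were not used here, and 0 library columns were left unused. Medians recomputed from the libraries matched within 0.005 points.

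The build named in the submitters' notes is mm9. Among the table's 863 distinct junctions, 650 (75.3%) equal an intron of GENCODE M21 (GRCm38), against 0 after a shift of 1000 bases, and 13 of the 18 hnRNP junctions do. Coordinates were read as GRCm38. Exon sequences came from M21 transcripts. The genome sequence was not used here.

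limma 3.58.1 in R 4.3.3 was fitted to PSI points over all 278 events (Benjamini-Hochberg, 0.05) and tested on simulated data. Alignment used Biopython 1.88 (match 1, mismatch −1, gap open −3, gap extension −1). Summaries used Python 3.11.15. The members, gene lists and motifs were chosen with earlier results of these data known. Named genes were the 5 members, Srsf1, listed genes of the hnRNP list and of a list of 15 decay and exon junction genes, and the 2 nearest genes of each member's largest event. The result of the decay list is not reported here. Tried alternatives were a logit scale, a trended robust spread, a stricter DRIMSeq limit, means in place of medians and leaving out each library.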

Additional observations from a re-analysis of the deposited data

How the results depend on the processing

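All 6 hnRNP events passed the limma threshold on the logit scale (1 point added to both forms), with a trended robust spread and without any 1 of the 7 libraries. With only the 214 events whose DRIMSeq corrected p is below 0.05, the 5 hnRNP events left all passed. Over the table, 266 of 278 events passed, 275 on the logit scale, 278 with the trended robust spread, 207 of those 214, and 239 to 266 without 1 library. Leaving out 1 library, the difference of medians lay between 28.3 and 31.67 points for the Hnrnpdl intron, −28.4 and −20.05 for its splice site, −18.0 and −12.4 for Hnrnpd, −22.94 and −8.57 for Hnrnpa2b1, −21.92 and −11.03 for Hnrnph3, −13.76 and −10.44 for Hnrnpc, and 47.83 and 57.6 for Srsf1. No direction changed in these settings or with means. Control and mutant values of each of these events did not overlap, so no direction could change, and this outcome gives no support. The limma passes give none either, because the listed events, and again the 214, were selected on the same contrast. No paired analysis was possible because the groups share no replicate number. Motif counts with 100 flanking bases were not run, since the genome sequence was not used here. Unknown depth limits the precision of every PSI value.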

Other observations

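For the largest event of each hnRNP gene, the listed events of other genes nearest in profile were found by the root mean square distance over the 7 libraries of PSI minus the control mean. Nearest to exon 7 of Hnrnpd were cassette exons of Gtf2ird1 (1.77 points) and of the chaperonin subunit gene Cct8 (1.82 points). Nearest to Hnrnpc were cassette exons of Lsm5, which encodes a protein of the U6 snRNP (1.71 points), and Pabpc4, a poly(A)-binding protein gene (1.78 points). Nearest to Hnrnpa2b1 were cassette exons of Prrc2c (3.15 points) and the filamin gene Flna (3.72 points). Nearest to Hnrnph3 were a last exon of the cold-inducible Rbm3 (2.71 points) and a cassette exon of Pacsin2 (3.82 points). The Hnrnpdl intron had no close neighbour, with Setd3 at 9.24 and Arfip1 at 9.39 points. Such distances are a description over 7 libraries, and among 278 events some are small by choice of the nearest.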
